A study of Mus musculus with 22 samples.

Results

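The genes described here encode the chains of the integrins and the laminins, measured by bulk RNA sequencing of mouse first mandibular molars. They were chosen by symbol: every row of the deposited normalised table whose name reads Itga, Itgb, Lama, Lamb or Lamc followed by a chain number or letter. This gave 37 of 28711 genes, of which 26 encode integrin chains (18 alpha and 8 beta) and 11 encode laminin chains (5 alpha, 3 beta and 3 gamma). The tested mice carried one Tgfbr2 allele with the change G357W in the type II TGF-beta receptor, a model of Loeys-Dietz syndrome (Het), and their littermates carried unmutated copies only (WT). Molars were taken at postnatal day 11 (P11) and postnatal day 5 (P5). The groups held 5 P11 Het, 5 P11 WT, 6 P5 Het and 6 P5 WT libraries of whole molars, with no strain stated in the labels. By the series text, 5 Het and 8 WT mice were used for these 22 libraries, and no label ties a library to an animal, so p-values measure the spread between libraries.

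Integrins are receptors of an alpha and a beta chain that span the cell membrane and join the extracellular matrix to the cytoskeleton. Laminins are trimers of an alpha, a beta and a gamma chain that form the sheet of the basement membrane, and the chain set decides which integrins bind them. In teeth the epithelial laminin that holds Lama3 and Lamb3 and its receptor of Itga6 and Itgb4 hold ameloblasts, the cells that make enamel, to their matrix, and in humans loss of these chains causes blistering skin with defective enamel. The integrins of Itgav with Itgb6 or Itgb8 bind the latent form of TGF-beta and release the active ligand, which places them upstream of the receptor that carries the mutation here.

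Levels are given in CPM, counts scaled to library size and by the trimmed mean of M values (TMM). Library totals lay between 32904047 and 45343814 counts. Markers of the labelled tissue were present: Ambn, an enamel matrix gene, averaged 80195.8 ± 11161.1 CPM in P5 Het and 93194.4 ± 11612.1 CPM in P5 WT molars (SD, n = 6 each). Odam, a gene of enamel maturation, averaged 71164.6 ± 10658.3 CPM in P11 Het and 64286.2 ± 4681.8 CPM in P11 WT molars (SD, n = 5 each). The library P5 Het 6 is labelled P5 in its title and P11 in its tissue field; it was kept at P5. Oral keratinocyte markers (17 of 18 listed were in the table) summed to 1323.3 CPM in P11 Het 2, 2136.4 CPM in P11 WT 4 and 1043.8 CPM in P11 WT 5, against 195.3 to 440.5 CPM in the other P11 libraries. P5 Het 4 had the highest such sum at P5, 68.1 CPM, and P5 Het 5 the highest sum of 16 muscle markers there, 88.3 CPM. Results were computed with and without these 5 libraries. Each library name holds a number followed by a hyphen (its prefix), and what it stands for is not given; the labels put all libraries in one batch. It is 1 or 2 at P11 and 3, 4 or 5 at P5, so age and prefix cannot be told apart.

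The first comparison asks which chains the mutation altered at P5, when ameloblasts secrete enamel matrix. One chain passed the test: Lama3, the alpha chain of the epithelial laminin, was lower in Het molars. The partner Lamb3, and the receptor chains Itga6, Itgb4 and Itga3, did not pass it. A gene was called at an adjusted p under 0.05 in the quasi-likelihood test of edgeR over 21510 genes. Of the 37 members 0 were called higher and 1 lower, where 0.0651% of all genes were called higher and 0.195% lower. At an unadjusted p under 0.05, 8 members stood against 6.22% of all genes.

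Lama3 (ENSMUSG00000024421; GRCm38, chromosome 18, 12333819 to 12583013, plus strand) had a lowest, median and highest level of 852.6, 889.6 and 930.8 CPM in 6 P5 Het molars, against 1077.7, 1115.3 and 1170.9 CPM in 6 P5 WT molars. Every Het library lay below every WT library, the only member of which that was true at P5, where 0.851% of all genes had groups that did not overlap. The mean was 893.1 ± 30.9 CPM in Het and 1117.7 ± 40.8 CPM in WT molars (SD, n = 6 each), which is a difference of -0.32 ± 0.05 on the log2 scale (SE; edgeR adjusted p = 0.00631). With the same prefix in both genotypes the direction was the same: prefix 3 gave means of 891.7 CPM in Het and 1113.6 CPM in WT molars (2 libraries each), and prefix 4 gave 886.2 CPM in 2 Het and 1119.8 CPM in 4 WT libraries. Leaving out any one of the 22 libraries kept the log2 fold change between -0.33 and -0.30 and the edgeR adjusted p between 0.00403 and 0.0235. A library left out is not an animal left out, because no label ties a library to a mouse. With the 5 libraries set apart above for their muscle or oral keratinocyte markers left out, the log2 fold change was again -0.32. The edgeR adjusted p was then 0.066, which ended the call. P5 Het 4 and P5 Het 5 are among the 5, so fewer P5 Het libraries stood in that fit.

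The summed markers of a dental epithelium list were also lower in P5 Het molars. By edgeR 0 of its 8 markers were called at P5. Of the 8, 6 had a negative log2 fold change, and the list median was -0.08. The 8 markers on that list, all in the table and none at 0, summed to between 1656.5 and 1822.2 CPM in P5 Het molars, against between 1850.8 and 1995.9 CPM in P5 WT molars, and their part in the Lama3 result was not tested. Fewer epithelial cells and less Lama3 RNA per cell cannot be told apart in bulk tissue. Of 7 maturation ameloblast markers edgeR called 1 higher and 1 lower in P5 Het molars, against the shares of all genes given above. Their median log2 fold change was -0.78. They summed to between 818.4 and 1604.0 CPM in P5 Het and between 1284.0 and 2465.8 CPM in P5 WT molars. Of 6 secretory ameloblast markers 0 were called, with a median of -0.11. The part of these lists in the Lama3 result was not tested. None of the epithelial chains Itga6, Itgb4, Itga3, Lamb3 and Itgb6 was called. Their log2 fold changes at P5 were 0.14 ± 0.08 for Itga6, 0.00 ± 0.07 for Itgb4, -0.02 ± 0.07 for Itga3, -0.16 ± 0.09 for Lamb3 and -0.29 ± 0.22 for Itgb6 (SE). An antisense gene, Gm29200, shares 197 exon bases with Lama3 and averaged 0.553 CPM in P5 Het and 0.764 CPM in P5 WT molars; the libraries do not keep strand.

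**Figure D1:**
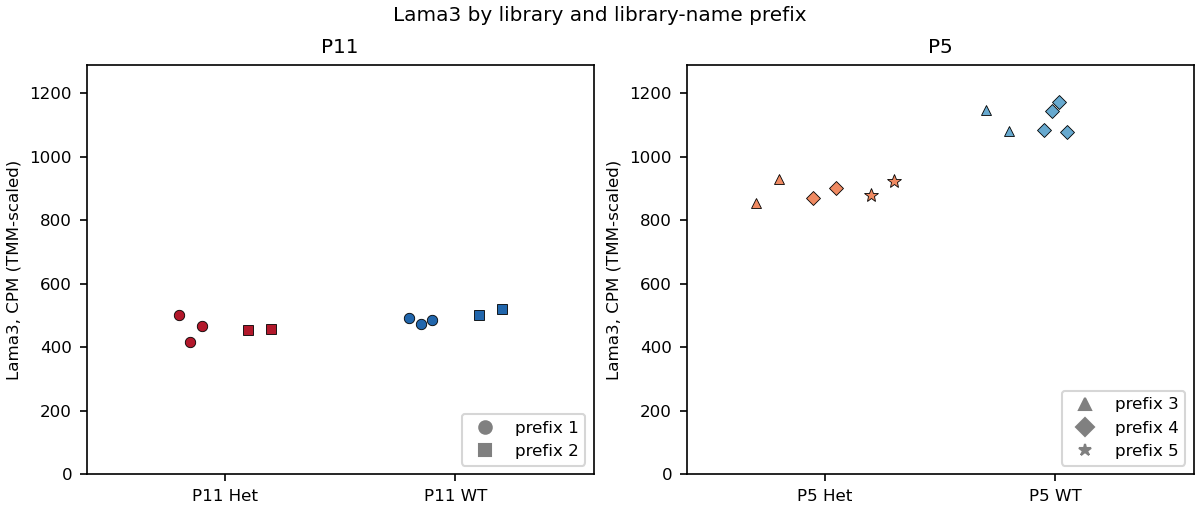
Lama3 level of each library (TMM-scaled CPM, y axis from 0) in Het (left) and WT (right) molars, at P11 in the left panel and at P5 in the right panel, with the marker shape giving the library-name prefix. At P5 all 6 Het libraries lie at or below 930.8 CPM and all 6 WT libraries at or above 1077.7 CPM, while at P11 the groups overlap.

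Lamb3, the beta chain, ranged from 280.3 to 373.0 CPM in P5 Het and from 341.4 to 406.7 CPM in P5 WT molars, with a log2 fold change of -0.16 ± 0.09 (SE; edgeR adjusted p = 0.849). Per kilobase of exon, Lama3 made up 73.4% ± 1.21 of the summed laminin alpha chains in P5 Het and 78.3% ± 1.36 in P5 WT molars (SD, n = 6 each), with no overlap between the 71.2 to 74.4% of Het and the 76.2 to 79.9% of WT libraries. This share is a description of the same counts and carries no test of its own.

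Among the remaining laminin chains at P5, those of the embryonic and broadly expressed trimers stayed close to WT. Lama1, the chain of early basement membranes, Lama5, a chain of epithelial and vascular basement membranes, and Lama4, a chain of vessel walls, had log2 fold changes of 0.04 ± 0.10, 0.13 ± 0.10 and 0.02 ± 0.07 (SE). Lama2, the chain of muscle and nerve, was at -0.01 ± 0.07. Lamb1, Lamb2 and Lamc1, the common beta and gamma chains, lay between -0.02 and 0.03. Lamc3, a gamma chain of limited distribution, averaged 33.8 ± 3.17 CPM in P5 Het and 30.0 ± 3.22 CPM in P5 WT molars (SD, n = 6 each; edgeR adjusted p = 0.784).

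No integrin chain was called at P5. Itgb7, a beta chain of lymphocytes and mast cells, had 0.945, 1.3 and 2.58 CPM (lowest, median, highest) in P5 Het molars, against 0.808, 0.982 and 1.18 CPM in P5 WT molars. Its groups overlapped, and the log2 fold change was 0.57 ± 0.20 (SE; edgeR adjusted p = 0.558). Itgax, the alpha chain of dendritic cells and some macrophages, ranged from 0.446 to 1.69 CPM in P5 Het and from 0.228 to 0.993 CPM in P5 WT molars (edgeR adjusted p = 0.749). Leukocyte markers (11 of 12 in the table, none at 0) summed to between 124.8 and 155.9 CPM in P5 Het and between 135.3 and 145.6 CPM in P5 WT molars.

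Some matrix receptors gave small negative values at both ages. Itga11, a collagen receptor of mesenchymal cells, averaged 29.2 ± 2.74 CPM in P5 Het and 34.1 ± 3.77 CPM in P5 WT molars (SD, n = 6 each), and 74.6 ± 8.96 CPM in P11 Het and 86.3 ± 10.3 CPM in P11 WT molars (SD, n = 5 each). Neither difference passed: the edgeR adjusted p was 0.672 at P5 and 0.484 at P11. Itga8, the alpha chain of the nephronectin receptor found in mesenchymal and smooth muscle cells, averaged 19.0 ± 2.35 CPM in P5 Het and 21.9 ± 2.2 CPM in P5 WT molars (SD, n = 6 each; edgeR adjusted p = 0.714). At P11 it averaged 59.6 ± 5.15 CPM in Het and 67.8 ± 7.01 CPM in WT molars (SD, n = 5 each; edgeR adjusted p = 0.521). The remaining integrin chains at P5 had log2 fold changes between -0.74, for Itgae at under 1 CPM, and 0.53, for Itgad at a few counts in all.

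At P11, when enamel matures, edgeR called 0 of the 37 members, as did DESeq2 and limma-voom, where edgeR called 0.0279% of all genes. At an unadjusted p under 0.05 edgeR gave 5 members, DESeq2 7 and limma-voom 9, where edgeR gave 9.85%, DESeq2 10.4% and limma-voom 10.3% of all genes. Lama3 had 500.8, 415.3, 467.4, 452.7 and 456.1 CPM in the 5 P11 Het molars, against 493.3, 473.2, 486.0, 501.5 and 520.2 CPM in the 5 P11 WT molars. One Het library, the first, lay within the WT range, and the log2 fold change was -0.11 ± 0.06 (SE; edgeR adjusted p = 0.553). The means within prefix 1 were 461.2 CPM in Het and 484.2 CPM in WT molars (3 libraries each), and within prefix 2 they were 454.4 and 510.8 CPM for Het and WT (2 libraries each).

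The smallest p at P11 belonged to Lamc3. It had 34.8, 31.5, 29.9, 31.7 and 34.0 CPM in P11 Het molars, against 34.4, 36.2, 36.3, 45.8 and 42.6 CPM in P11 WT molars. The groups touched at one end. The highest WT values came from P11 WT 4 and 5, which have raised oral keratinocyte markers and are also the WT libraries of prefix 2. P11 Het 2, which has raised markers too, had 31.5 CPM. The part of those markers was not tested. The log2 fold change was -0.27 ± 0.09 (SE; edgeR adjusted p = 0.331). Itgb1, the beta chain shared by most matrix receptors, had 533.4, 506.2, 514.2, 556.2 and 536.2 CPM in P11 Het molars, against 565.2, 600.5, 587.2, 574.9 and 571.3 CPM in P11 WT molars. Here every Het library lay below every WT library, as for 1.36% of all genes, and the log2 fold change of -0.13 ± 0.06 did not pass (SE; edgeR adjusted p = 0.484).

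Itgb3, the beta chain of the receptor by which osteoclasts grip bone, had 42.2, 30.7, 25.8, 41.9 and 32.4 CPM in P11 Het molars, against 40.5, 50.3, 56.7, 38.7 and 42.4 CPM in P11 WT molars. The groups overlapped, with the lowest values in Het and the highest in WT molars, and the log2 fold change of -0.40 ± 0.15 did not pass (SE; edgeR adjusted p = 0.376). Osteoclast markers (7 of 7 in the table, none at 0) summed to between 243.7 and 368.1 CPM in P11 Het and between 294.5 and 400.1 CPM in P11 WT molars, and their part in the Itgb3 values was not tested. Itgad, a leukocyte alpha chain, ranged from 0.432 to 1.46 CPM in P11 Het and from 0.177 to 0.664 CPM in P11 WT molars (edgeR adjusted p = 0.493). The TGF-beta activating chains gave opposite signs at P11: Itgb6 had a log2 fold change of 0.31 ± 0.24 and Itgb8 of -0.23 ± 0.14 (SE), and neither passed (edgeR adjusted p = 0.714 and 0.601).

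**Figure D2:**
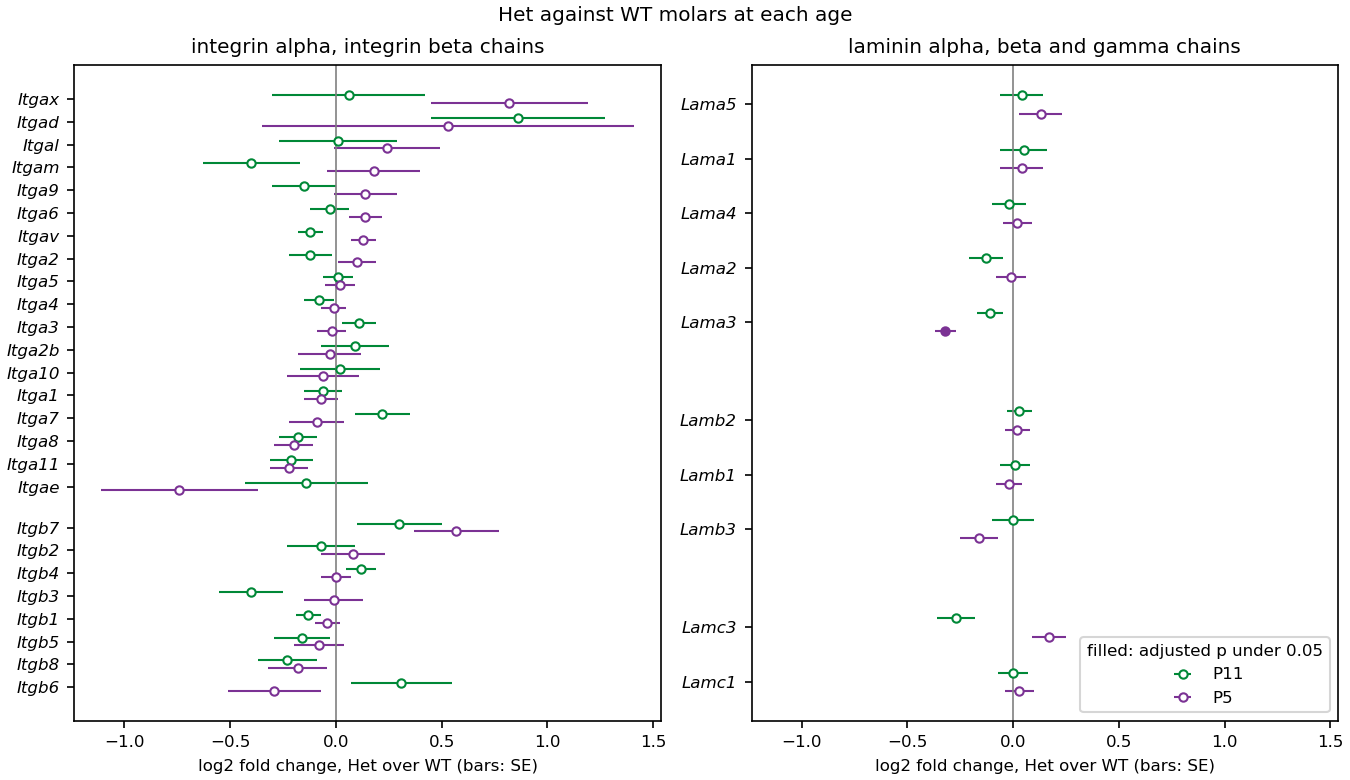
Log2 fold change of Het over WT molars (x axis) for the integrin chains (left) and the laminin chains described here (right), at P11 (green) and at P5 (purple), with bars giving the SE. A filled point passed the edgeR test at an adjusted p under 0.05, which Lama3 at P5 did, at -0.32.

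Taken as the mean of both ages, Lama3 was again the called member, with a log2 fold change of -0.22 ± 0.04 (SE; edgeR adjusted p = 0.0211), where 0.107% of all genes were called lower. That call was lost with no filter on low counts (-0.22, edgeR adjusted p = 0.0743) and without the 5 libraries with raised markers (-0.18, edgeR adjusted p = 0.297). With the prefix as a block Itga8 was called as well, at -0.26 (edgeR adjusted p = 0.03). The test of whether the genotype effect differed between the ages called 0 members by edgeR, DESeq2 and limma-voom, where edgeR called 0.0139% of all genes. At an unadjusted p under 0.05 edgeR gave 3 members, DESeq2 4 and limma-voom 4, where edgeR gave 10.3%, DESeq2 10.8% and limma-voom 10.2% of all genes. The 3 were Lamc3 at -0.44 ± 0.12, Itgav at -0.25 ± 0.09 and Lama3 at 0.21 ± 0.08, as the log2 effect at P11 minus that at P5 (SE; edgeR adjusted p = 0.285, 0.408 and 0.425). The effect on Lama3 is thus not shown to differ between P5 and P11.

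Around the members, lists of integrin ligands, adhesion proteins inside the cell, basement membrane partners, other laminin receptors and latent TGF-beta proteins were read in the same fit. At P5 the call among them was Thbs1, thrombospondin, a matrix protein that binds integrins and releases TGF-beta from its latent form. It averaged 27.2 ± 3.68 CPM in P5 Het and 39.2 ± 4.44 CPM in P5 WT molars (SD, n = 6 each), or -0.53 ± 0.09 on the log2 scale (SE; edgeR adjusted p = 0.00704). It was 1 of 22 integrin ligands tested. None of the 28 adhesion machinery genes, 25 basement membrane partners, 8 hemidesmosome and other laminin receptor genes and 12 latent TGF-beta genes was called by edgeR between genotypes at either age. At P11 Thbs1 averaged 175.4 ± 19.1 CPM in Het and 239.5 ± 17.7 CPM in WT molars (SD, n = 5 each), or -0.45 ± 0.10 (SE; edgeR adjusted p = 0.0988), and in the mean of both ages it was called, at -0.49 ± 0.07 (SE; edgeR adjusted p = 0.00153). Without the 5 libraries with raised markers the P5 call was lost, at -0.49 ± 0.10 (SE; edgeR adjusted p = 0.0711), and the call in the mean of both ages was not, at -0.49 ± 0.08 (SE; edgeR adjusted p = 0.0208).

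More chains were called between ages than between genotypes. At P11, integrin chains were mostly higher and laminin chains mostly lower than at P5. In Het molars 18 members were higher and 14 lower at P11 than at P5, and in WT molars 20 were higher and 15 lower, by edgeR at an adjusted p under 0.05. Background shares were 24.4% of all genes higher and 23.4% lower in Het, and 24.8% higher and 24.7% lower in WT molars. Of the 26 integrin chains, 17 were higher and 5 lower in Het and 18 higher and 6 lower in WT molars, with a median log2 fold change of 0.86 in Het and 0.98 in WT. Of the 11 laminin chains, 1 was higher and 9 lower in Het and 2 higher and 9 lower in WT molars, with a median of -0.49 in Het and -0.38 in WT, against -0.01 over all genes in both. The P11 and P5 groups did not overlap for 27 members in Het and 28 in WT molars, against 30.3% and 32% of all genes.

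The same 18 members were higher in both genotypes and the same 14 lower, 3 were called in WT molars alone and 2 in neither, while the difference between genotypes was tested by the interaction above. The 3 were Itgam, Lamc3 and Itgb4, and the 2 were Itgal, an alpha chain of leukocytes, and Itga1, a collagen receptor. With library totals in place of TMM the median of all genes moved by 0.14 in WT and by 0.04 in Het molars on the log2 scale. Set against that shift, the smallest declines were not called: Lamb1 and Lamb2 were then at -0.08 in WT molars and Itgb4 at -0.12. Itgad and Itgae would not have passed the low-count filter on the P5 libraries alone, so that they passed it only through their higher P11 level. Both are counted above as higher and as not overlapping, though the filter favoured that direction for them.

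**Figure D3:**
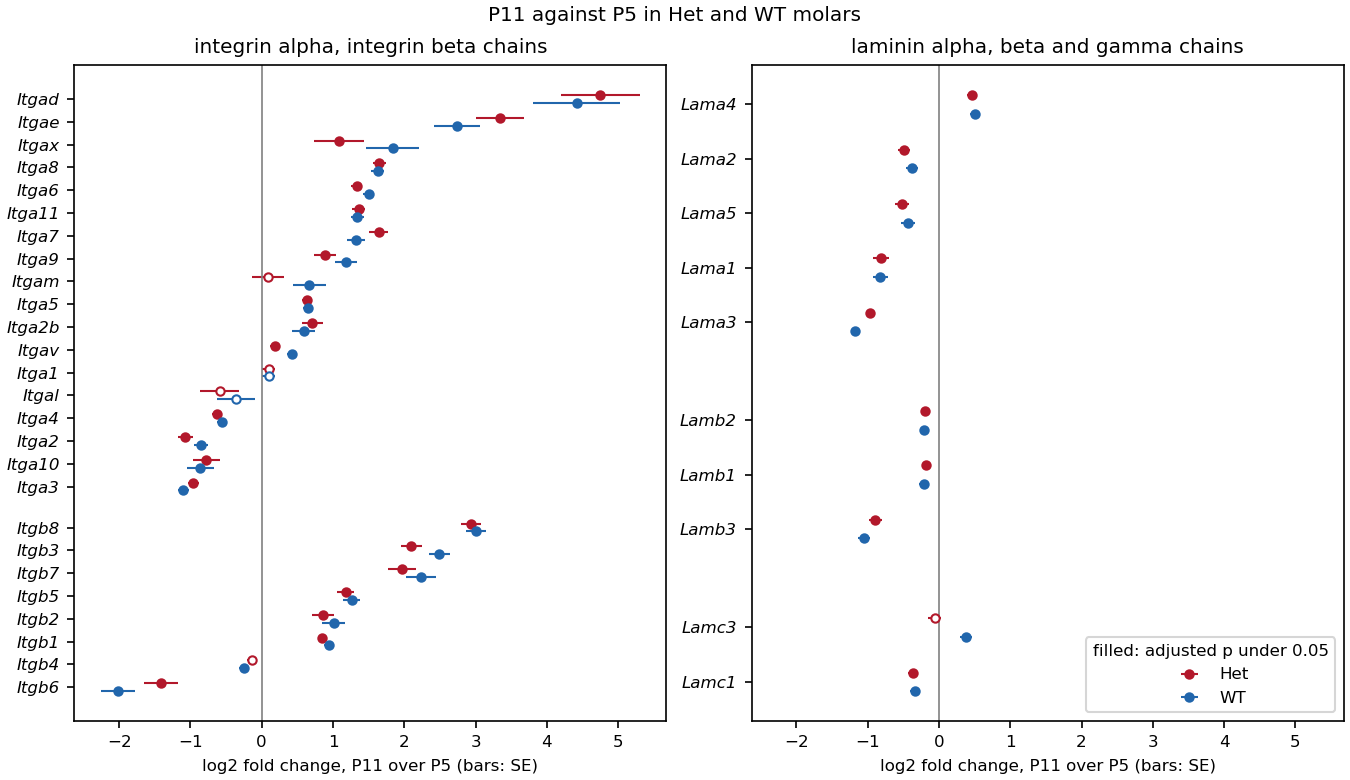
Log2 fold change of P11 over P5 molars (x axis) for the integrin chains (left) and the laminin chains described here (right), in Het (red) and WT (blue) molars, with bars giving the SE and filled points those called by edgeR. Most integrin chains lie right of 0 and most laminin chains left of it, with Itgb6 and Itga3 among the integrins that were lower at P11.

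The promoters of strongly changed chains are shown because their genes are among those with the strongest called age changes in WT molars, lower for Itgb6, Lamb3 and Itga3 and higher for Itgb7 and Itgax. Of the 12 chains with the strongest called age changes in WT molars, 6 in each direction, 7 had an entry in RefSeq's promoter table for GRCm38.p6, and of these 5 are shown, from the far end of the window before the start to the first base that an annotated exon covers. Itgb6, Lamb3 and Itga3 each have 2 starts in the table, of which the first listed is shown. The stretches are Itgb6, chr2:60722644-60722853 on the minus strand, Lamb3, chr1:193301744-193301992 on the plus strand, and Itga3, chr11:95076802-95076964 on the minus strand. Those of the rising chains are Itgb7, chr15:102231945-102232185 on the minus strand, and Itgax, chr7:128129300-128129546 on the plus strand. Capitals mark matches, on either strand, to TGANTCA (AP-1), CAGAC (a SMAD box), TGTGGT (RUNX) and GGGCGG (a GC box).
Itgb6: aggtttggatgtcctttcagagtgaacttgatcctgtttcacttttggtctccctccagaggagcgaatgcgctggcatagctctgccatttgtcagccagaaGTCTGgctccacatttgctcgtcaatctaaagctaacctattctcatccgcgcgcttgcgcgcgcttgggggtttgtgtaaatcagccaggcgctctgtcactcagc
Lamb3: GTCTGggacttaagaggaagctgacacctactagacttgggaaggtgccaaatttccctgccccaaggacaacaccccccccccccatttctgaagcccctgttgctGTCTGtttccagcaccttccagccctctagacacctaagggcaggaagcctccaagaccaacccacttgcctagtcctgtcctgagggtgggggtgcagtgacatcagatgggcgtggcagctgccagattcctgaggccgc
Itga3: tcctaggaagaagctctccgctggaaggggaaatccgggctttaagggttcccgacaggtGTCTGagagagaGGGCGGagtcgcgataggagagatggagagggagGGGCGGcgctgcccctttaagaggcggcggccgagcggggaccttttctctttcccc
Itgb7: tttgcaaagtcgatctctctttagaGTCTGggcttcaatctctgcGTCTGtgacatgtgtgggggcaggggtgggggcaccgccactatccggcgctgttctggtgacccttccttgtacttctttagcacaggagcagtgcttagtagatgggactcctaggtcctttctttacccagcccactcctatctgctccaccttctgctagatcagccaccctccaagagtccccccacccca
Itgax: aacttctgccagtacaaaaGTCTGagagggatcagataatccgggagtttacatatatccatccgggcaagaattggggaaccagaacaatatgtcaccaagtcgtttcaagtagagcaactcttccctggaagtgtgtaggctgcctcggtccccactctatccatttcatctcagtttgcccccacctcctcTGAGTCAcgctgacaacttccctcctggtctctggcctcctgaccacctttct

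The SMAD box, a short letter run bound by the proteins that carry the TGF-beta signal, was present in all 5 stretches, among both falling and rising chains. Of the 32851 windows before a start in the table, each taken whole, 42.2% held it. An AP-1 match was present in the Itgax stretch and is held by 6.75% of all windows. The Itga3 stretch held 2 GC boxes, and 32.7% of all windows held one. No RUNX match, held by 14% of all windows, was found in the 5 stretches. A match is a run of letters and not a bound site.

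Among the laminins, Lama3 and Lamb3 of the epithelial laminin fell together at P11. Lama3 fell by 0.96 ± 0.06 in Het and by 1.18 ± 0.06 in WT molars on the log2 scale (SE; edgeR adjusted p = 1.83e-12 and 4.6e-14). Lamb3 (the promoter above) averaged 178.3 ± 24.0 CPM in P11 Het and 329.4 ± 32.9 CPM in P5 Het molars, and 178.0 ± 21.6 CPM in P11 WT and 367.7 ± 29.2 CPM in P5 WT molars (SD, n = 5 at P11 and 6 at P5). Its log2 fold change was -0.89 ± 0.09 in Het and -1.05 ± 0.09 in WT molars (SE).

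Lama3 and Lamb3 fell while the summed markers of dental epithelium were higher and those of secretory ameloblasts lower. Of 8 dental epithelium markers edgeR called 5 higher and 2 lower in Het, and 5 higher and 1 lower in WT molars, against the shares of all genes given above. Krt14, on that list, averaged 3228.8 CPM in P11 Het and 670.0 CPM in P5 Het molars. In WT molars it averaged 4007.5 CPM at P11 and 711.0 CPM at P5. All 6 secretory ameloblast markers were called lower in both genotypes. Dental epithelium markers summed to between 4934.6 and 6658.1 CPM in P11 Het and between 4764.1 and 8666.5 CPM in P11 WT molars, above all P5 libraries, and oral keratinocyte markers were also higher at P11. Secretory ameloblast markers (6 of 6 in the table) summed to between 18411.2 and 44896.9 CPM in P11 Het and 122412.6 to 162148.9 CPM in P5 Het molars. In WT molars those sums were 17402.2 to 26194.9 CPM at P11 and 152979.0 to 168500.9 CPM at P5. The part of these markers in the age results was not tested.

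The common laminin chains fell less. Lamc1, the gamma chain of most trimers, averaged 324.9 ± 24.0 CPM in P11 Het and 417.3 ± 34.0 CPM in P5 Het molars, a log2 fold change of -0.36 ± 0.07 (SE), and changed by -0.33 ± 0.07 in WT molars. Lamb1 and Lamb2, its usual beta partners, were called lower in both genotypes, with log2 fold changes of -0.18 and -0.19 in Het and -0.21 for both in WT molars, calls that the scaling by library totals ended. Without the 5 libraries with raised markers the Lamb1 call was also lost, at -0.10 in Het and -0.19 in WT molars, and the Het call of Lamb2, at -0.11. The Het call of Lamb1 was lost as well without P5 Het replicate 5 or 6 or P11 Het replicate 2 or 5, with an edgeR adjusted p between 0.0578 and 0.0726. Lama1, Lama2 and Lama5 were lower at -0.81, -0.49 and -0.52 in Het and at -0.82, -0.38 and -0.43 in WT molars.

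Lama4, the laminin alpha chain of endothelium and mesenchyme, was the laminin chain that was higher at P11 in both genotypes. It averaged 117.5 ± 8.14 CPM in P11 Het and 84.8 ± 8.0 CPM in P5 Het molars, and 119.1 ± 11.8 CPM in P11 WT and 83.4 ± 5.04 CPM in P5 WT molars (SD, n = 5 at P11 and 6 at P5). Its log2 fold change was 0.47 ± 0.07 in Het and 0.51 ± 0.07 in WT molars (SE). Endothelial markers (10 of 10 in the table, none at 0) summed to between 337.0 and 439.6 CPM in P11 Het and between 280.0 and 296.5 CPM in P5 Het molars, and their part in the Lama4 result was not tested. Lamc3 was higher at P11 in WT molars, at 0.38 ± 0.09, and not called in Het molars, at -0.06 ± 0.09 (SE; edgeR adjusted p = 0.575).

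**Figure D4:**
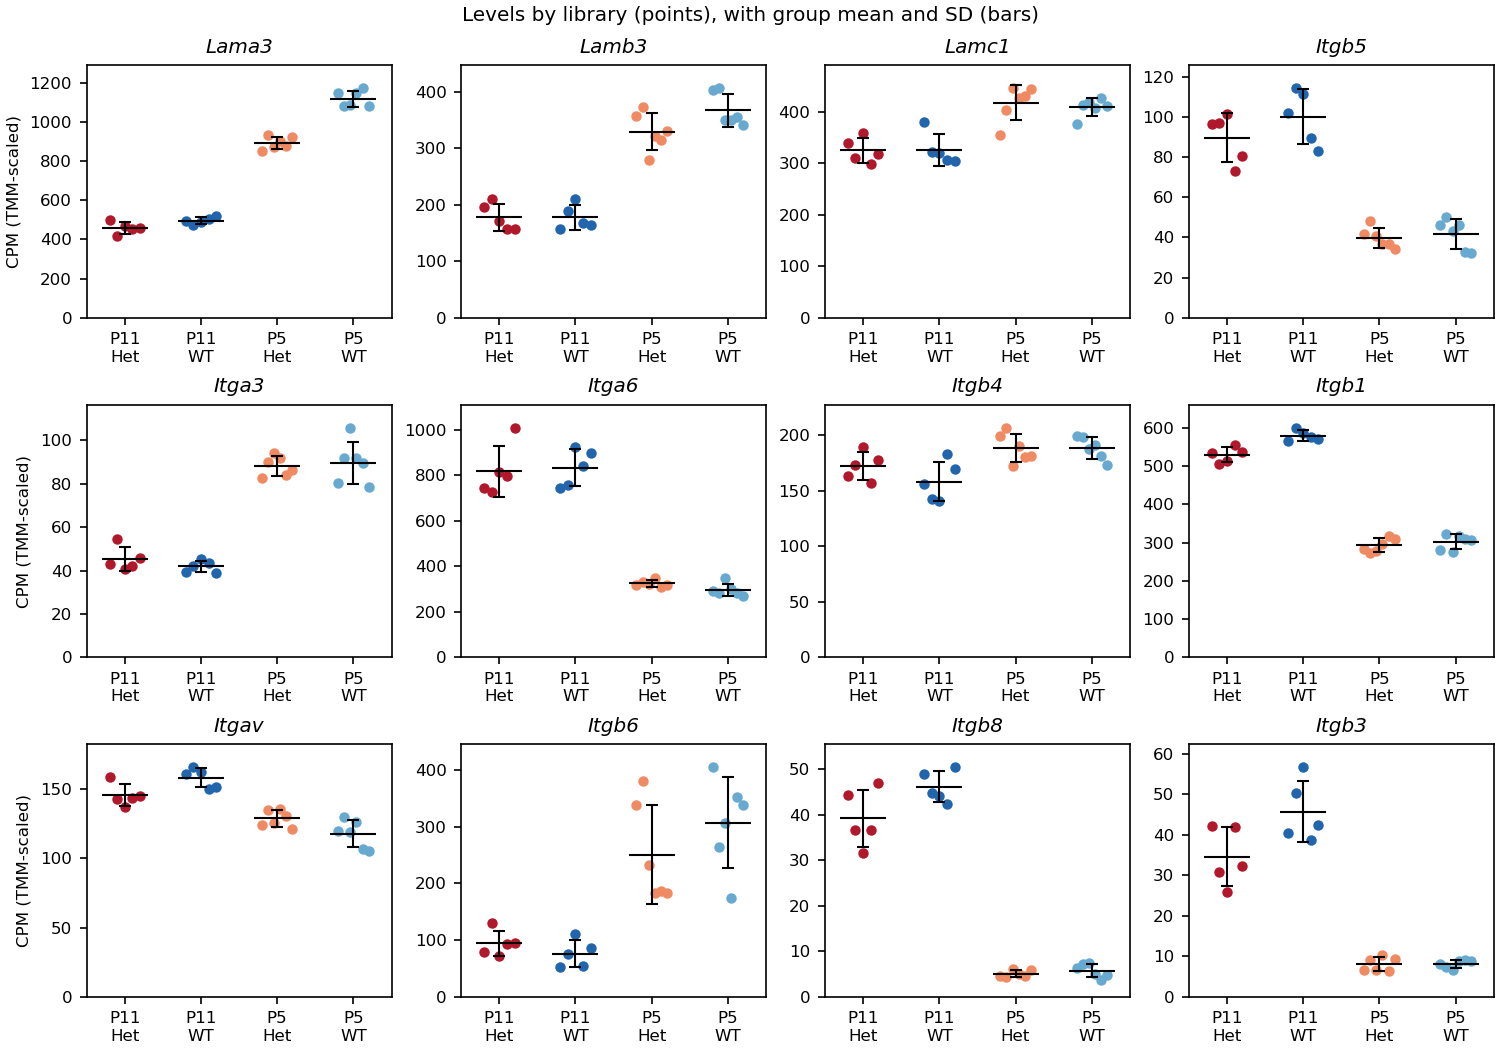
Level of 12 chains in each library (points, TMM-scaled CPM, y axes from 0) for the P11 Het, P11 WT, P5 Het and P5 WT groups, with the group mean and SD as bars. The epithelial laminin chains Lama3 and Lamb3 are lower at P11 than at P5, while Itga6, Itgb1, Itgb5, Itgb8 and Itgb3 are higher.

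As shares of all alpha chains per kilobase of exon, Lama3 stood at 63.2% ± 1.43 in P11 Het and 73.4% ± 1.21 in P5 Het molars, and at 64.9% ± 2.97 in P11 WT and 78.3% ± 1.36 in P5 WT molars (SD, n = 5 at P11 and 6 at P5). Lama4 held 14.4% in P11 Het and 6.21% in P5 Het molars, and 13.9% in P11 WT and 5.21% in P5 WT molars. Lama3 thus remained the most abundant alpha chain at P11 by this measure, with a smaller share than at P5.

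The receptor chains of these laminins divided, with Itga6 higher and Itga3 lower at P11. Itga6, the alpha chain that pairs with Itgb4 in hemidesmosomes and with Itgb1 elsewhere, had 743.2, 725.8, 814.6, 796.2 and 1009.4 CPM in P11 Het molars, against 308.5, 320.6 and 349.6 CPM (lowest, median, highest) in P5 Het molars. In WT molars it had 744.4, 758.6, 924.0, 841.0 and 899.4 CPM at P11, against 271.3, 286.2 and 346.9 CPM at P5. Every P11 library lay above every P5 library, with log2 fold changes of 1.33 ± 0.08 in Het and 1.5 ± 0.08 in WT molars (SE; edgeR adjusted p = 4.53e-12 and 5.43e-13). Itgb4, its hemidesmosome partner, averaged 172.2 ± 12.7 CPM in P11 Het and 188.3 ± 12.9 CPM in P5 Het molars, which did not pass (edgeR adjusted p = 0.145), and 158.2 ± 17.8 CPM in P11 WT and 188.3 ± 10.1 CPM in P5 WT molars, which passed at -0.25 ± 0.07 (SE; edgeR adjusted p = 0.00542). Per kilobase, Itga6 stood at 3.7 ± 0.478 times Itgb4 in P11 Het and 1.34 ± 0.0931 times in P5 Het molars, and at 4.13 ± 0.591 times in P11 WT and 1.22 ± 0.119 times in P5 WT molars (SD).

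Itga3, the other epithelial laminin receptor chain (the promoter above), moved against Itga6. It had 43.2, 54.6, 40.8, 42.3 and 45.7 CPM in P11 Het molars, against 82.5, 88.4 and 94.1 CPM (lowest, median, highest) in P5 Het molars, and in WT molars it had 39.5, 42.2, 45.2, 43.6 and 38.9 CPM at P11, against 78.5, 90.6 and 105.9 CPM at P5. No P11 library reached the P5 range, and the log2 fold change was -0.96 ± 0.08 in Het and -1.10 ± 0.08 in WT molars (SE; edgeR adjusted p = 4.71e-10 and 4.26e-11). Itga7, the laminin receptor of muscle, was low and higher at P11, at 8.72 ± 1.07 CPM in P11 Het and 2.79 ± 0.357 CPM in P5 Het molars, and at 7.47 ± 0.67 CPM in P11 WT and 2.98 ± 0.579 CPM in P5 WT molars (SD, n = 5 at P11 and 6 at P5). Muscle markers (16 of 16 in the table, none at 0) summed to between 23.4 and 150.9 CPM in P11 Het and 19.1 to 88.3 CPM in P5 Het molars, and to 30.3 to 55.1 CPM in P11 WT and 16.7 to 23.0 CPM in P5 WT molars, and their part in the Itga7 values was not tested.

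Itgb1, the shared partner, was higher at P11 in both genotypes, with log2 fold changes of 0.85 ± 0.06 in Het and 0.94 ± 0.06 in WT molars (SE; edgeR adjusted p = 1.49e-11 and 2.29e-12). Its mean was 529.2 ± 19.7 CPM in P11 Het and 292.9 ± 17.8 CPM in P5 Het molars, and 579.8 ± 14.1 CPM in P11 WT and 302.1 ± 19.1 CPM in P5 WT molars (SD, n = 5 at P11 and 6 at P5). Per kilobase of exon it was the highest of all 37 members at P11, at 129.7 in Het and 142.1 CPM per kilobase in WT molars. At P5 it stood at 71.8 in Het and 74.0 CPM per kilobase in WT molars, below Lama3 at 83.1 in Het and 104.0 CPM per kilobase in WT molars.

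The collagen receptors divided. Itga11, the chain that binds fibrillar collagen on fibroblasts, had 74.8, 63.2, 68.9, 85.7 and 80.6 CPM in P11 Het molars, against 24.6, 30.2 and 31.9 CPM (lowest, median, highest) in P5 Het molars, and 83.4, 80.7, 74.9, 90.9 and 101.7 CPM in P11 WT molars, against 29.1, 34.9 and 39.3 CPM in P5 WT molars. All P11 libraries lay above all P5 libraries, with log2 fold changes of 1.36 ± 0.09 in Het and 1.34 ± 0.09 in WT molars (SE). Itga2, a collagen receptor of epithelium and platelets, was lower at P11, with a log2 fold change of -1.07 ± 0.10 in Het and -0.85 ± 0.10 in WT molars (SE). Itga10, a collagen receptor of cartilage, was low and lower at P11, at 3.87 ± 0.363 CPM in P11 Het and 6.63 ± 2.06 CPM in P5 Het molars, and at 3.8 ± 0.428 CPM in P11 WT and 6.89 ± 1.92 CPM in P5 WT molars (SD, n = 5 at P11 and 6 at P5); it shares 1739 exon bases with Gm42957 and its counts are uncertain. Itga1, a collagen receptor of vessel walls, was called in neither genotype, at 0.10 ± 0.09 in both (SE). By share of the 4 collagen-binding alpha chains per kilobase, Itga11 held 74.9% ± 3.48 in P11 Het and 42.7% ± 3.0 in P5 Het molars, and 76.6% ± 3.98 in P11 WT and 47.0% ± 2.35 in P5 WT molars (SD).

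Among beta partners of Itgav other than Itgb1, Itgb6 was lower at P11, and Itgb3, Itgb5 and Itgb8 were higher. Itgav itself, the alpha chain of receptors for RGD ligands and latent TGF-beta, changed little, with log2 fold changes of 0.18 ± 0.06 in Het and 0.42 ± 0.06 in WT molars (SE; edgeR adjusted p = 0.0188 and 2.72e-06). The Het call was lost without P11 Het replicate 1, at 0.14 (edgeR adjusted p = 0.0635), and with no low-count filter. Itgb6, the epithelial beta chain that activates TGF-beta and whose loss in mice disturbs enamel (the promoter above), had 79.0, 130.5, 72.7, 93.1 and 94.8 CPM in P11 Het molars, against 182.4, 209.7 and 380.2 CPM (lowest, median, highest) in P5 Het molars. In WT molars it had 53.2, 76.1, 111.1, 55.0 and 85.3 CPM at P11, against 174.3, 322.6 and 404.7 CPM at P5. The ages did not overlap in either genotype, the P5 values spread widely, and the log2 fold change was -1.41 ± 0.24 in Het and -2.01 ± 0.24 in WT molars (SE; edgeR adjusted p = 2.86e-05 and 2.5e-07).

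Itgb8, the beta chain that activates TGF-beta on mesenchymal, neural and immune cells, had 44.4, 36.6, 31.7, 36.7 and 47.0 CPM in P11 Het molars, against 4.4, 4.84 and 6.07 CPM (lowest, median, highest) in P5 Het molars. In WT molars it had 48.9, 44.9, 44.2, 42.5 and 50.5 CPM at P11, against 3.72, 5.67 and 7.46 CPM at P5. The lowest P11 library lay above the highest P5 library, with log2 fold changes of 2.94 ± 0.14 in Het and 3.00 ± 0.14 in WT molars (SE; edgeR adjusted p = 5.47e-14 and 2.84e-14). Itgb5, the vitronectin-binding beta chain, rose by 1.18 ± 0.12 in Het and 1.26 ± 0.12 in WT molars on the log2 scale (SE). Itgb3 was higher in every P11 library than in any P5 library, at 25.8 to 42.2 CPM in P11 Het and 6.34 to 10.3 CPM in P5 Het molars, and at 38.7 to 56.7 CPM in P11 WT and 6.65 to 9.05 CPM in P5 WT molars, a log2 fold change of 2.10 ± 0.15 in Het and 2.49 ± 0.15 in WT (SE). Osteoclast markers were higher beside it: their sums were 34.6 to 71.6 CPM in P5 Het and 42.7 to 66.5 CPM in P5 WT molars, below the P11 sums given above, and their part was not tested.

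Among the beta partners of Itgav per kilobase, Itgb6 held 27.5% ± 5.03 in P11 Het and 72.0% ± 4.73 in P5 Het molars, and 20.8% ± 4.54 in P11 WT and 74.9% ± 7.69 in P5 WT molars (SD, n = 5 at P11 and 6 at P5). Itgb5 held 52.7% ± 6.01 in P11 Het and 24.0% ± 3.53 in P5 Het molars, and 55.6% ± 4.65 in P11 WT and 21.6% ± 7.01 in P5 WT molars (SD). Itgb8 stayed the smallest share, at 7.46% in P11 Het and 1.03% in P5 Het molars, and at 8.36% in P11 WT and 0.944% in P5 WT molars. Thus Itgb6 was the largest of the 4 at P5 and Itgb5 at P11 in both genotypes. The 4 were Itgb3, Itgb5, Itgb6 and Itgb8. Itgb1, which can also pair with Itgav, was left out of the set, and its level was above each of them. Per kilobase it stood at 129.7 CPM in P11 Het, 142.1 CPM in P11 WT, 71.8 CPM in P5 Het and 74.0 CPM in P5 WT molars.

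**Figure D5:**
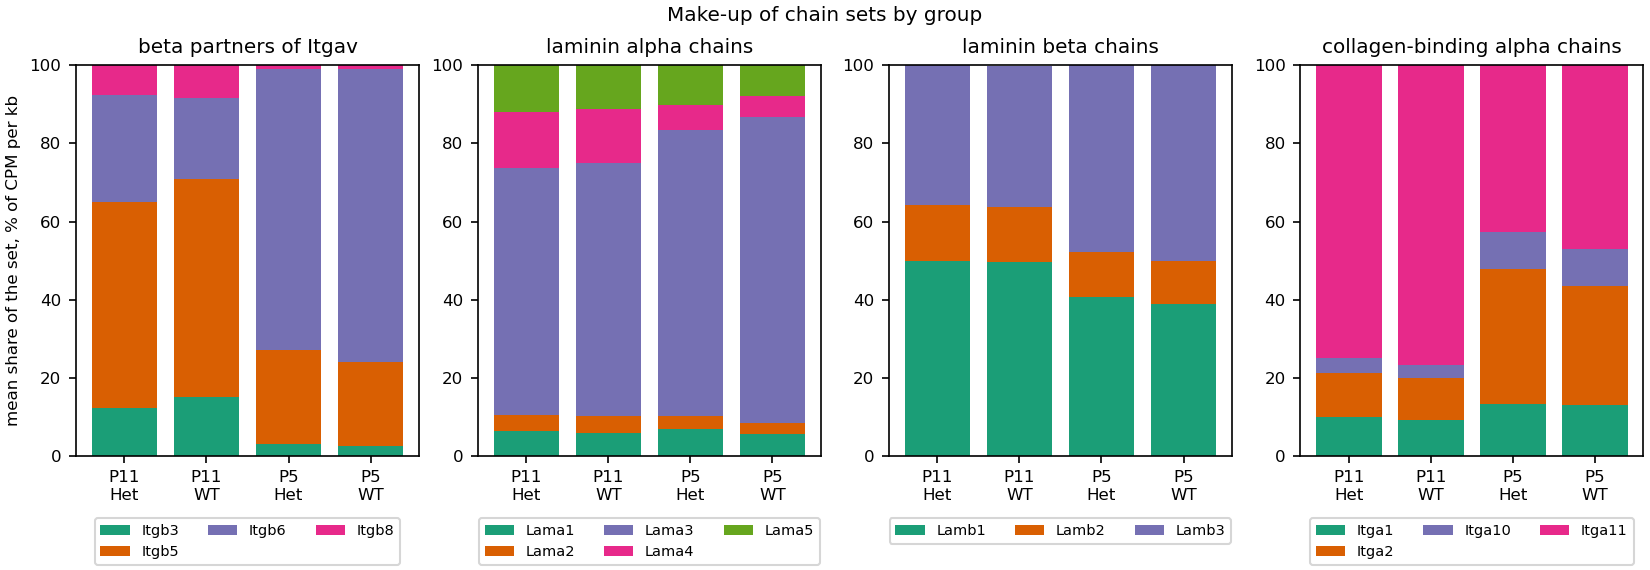
Mean share of each chain in 4 sets (stacked bars, % of the summed CPM per kilobase of exon) for the P11 Het, P11 WT, P5 Het and P5 WT groups. Itgb6 holds 72.0% and 74.9% of the Itgav partners other than Itgb1 at P5 and Itgb5 52.7% and 55.6% at P11 (Het and WT). Itga11 holds the largest share of the collagen-binding chains at both ages.

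Among receptors for fibronectin and related ligands, Itga5, Itga8 and Itga9 were higher at P11 and Itga4 was lower. Itga5, the fibronectin receptor, had log2 fold changes of 0.64 ± 0.07 in Het and 0.65 ± 0.07 in WT molars (SE). Itga8 had 55.0, 57.7, 68.4, 59.3 and 57.7 CPM in P11 Het molars, against 16.4, 18.8 and 22.5 CPM (lowest, median, highest) in P5 Het molars, and rose by 1.65 ± 0.09 in Het and 1.63 ± 0.09 in WT molars on the log2 scale (SE; edgeR adjusted p = 3.52e-13 for both). Mural cell markers (7 of 7 in the table, none at 0) summed to between 8334.2 and 12288.6 CPM in P11 Het and 4364.0 to 6042.8 CPM in P5 Het molars. In WT molars the sums were 7068.5 to 9562.3 CPM at P11 and 3396.7 to 6095.9 CPM at P5. In each genotype edgeR called 4 of the 7 higher and 2 lower, against the shares of all genes given above. The part of these markers in the Itga8 result was not tested. Itga9, a receptor for tenascin and other ligands, rose by 0.89 ± 0.15 in Het and 1.18 ± 0.15 in WT molars (SE). Itga4, the VCAM and fibronectin receptor of migrating cells, was lower, at -0.62 ± 0.07 in Het and -0.55 ± 0.07 in WT molars (SE). It shares 1124 exon bases with Cerkl on the opposite strand, and the libraries do not keep strand. Cerkl averaged 3.17 CPM in P11 Het and 3.26 CPM in P11 WT molars, against 4.89 CPM in both P5 groups. Its part in the Itga4 counts was not tested.

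The leukocyte and platelet chains were low throughout. Itgb2, the shared beta chain of leukocytes, averaged 4.99 ± 0.995 CPM in P11 Het and 2.74 ± 0.686 CPM in P5 Het molars, and 5.23 ± 0.633 CPM in P11 WT and 2.59 ± 0.252 CPM in P5 WT molars (SD, n = 5 at P11 and 6 at P5), and was called higher in both genotypes. Itgb7 (the promoter above) had 5.25, 5.19, 6.1, 6.24 and 6.21 CPM in P11 Het molars, against 0.945 to 2.58 CPM in P5 Het molars, and 4.2, 4.43, 3.98, 4.99 and 6.01 CPM in P11 WT molars, against 0.808 to 1.18 CPM in P5 WT molars. Its ages did not overlap in either genotype, and the log2 fold change was 1.97 ± 0.20 in Het and 2.24 ± 0.21 in WT molars (SE). Itgae, the partner of Itgb7 on lymphocytes of epithelia, ranged from 1.39 to 2.39 CPM in P11 Het and from 0.0868 to 0.259 CPM in P5 Het molars, and from 1.27 to 3.76 CPM in P11 WT and from 0.0806 to 0.426 CPM in P5 WT molars. Summed leukocyte markers overlapped between the ages, at 123.9 to 181.1 CPM in P11 Het and 124.8 to 155.9 CPM in P5 Het molars. In WT molars the sums were 134.8 to 177.2 CPM at P11 and 135.3 to 145.6 CPM at P5. Of 11 tested edgeR called 3 higher and 1 lower in Het molars, and 3 higher and 2 lower in WT molars. These counts stand against the shares of all genes given above. The part of these markers in the leukocyte chains was not tested.

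Itgax (the promoter above) was higher at P11, with a log2 fold change of 1.08 ± 0.35 in Het and 1.84 ± 0.37 in WT molars (SE; edgeR adjusted p = 0.0146 and 0.000224). The Het groups overlapped, at 1.39 to 2.85 CPM at P11 and 0.446 to 1.69 CPM at P5, and the Het call was lost without P11 Het replicate 5, at 0.91 (edgeR adjusted p = 0.051), and without the 5 libraries with raised markers, at 0.92 (0.0686). Itgam, the alpha chain of macrophages and neutrophils, was not called in Het molars, at 0.09 ± 0.23, and was called in WT molars, at 0.67 ± 0.23 (SE; edgeR adjusted p = 0.779 and 0.016). The WT call was lost without P11 WT replicate 3, at 0.55 (edgeR adjusted p = 0.0619). Itgam shares 3450 exon bases with Gm49368 on the same strand, and Itgam, Itgax and Itgad are neighbouring copies on chromosome 7, so their counts are uncertain. Itgad was read with 18 to 63 counts in P11 Het and 0 to 2 in P5 Het libraries, and with 7 to 27 counts in P11 WT and 0 to 3 in P5 WT libraries. It shares 70 exon bases with Cox6a2, which averaged 22.3 CPM in both P11 groups, 0.516 CPM in P5 Het and 0.262 CPM in P5 WT molars. It shares 388 with 4931431B13Rik, which averaged 1.39 CPM in P11 Het and 0.00415 CPM in P5 Het molars, and 1.04 CPM in P11 WT and 0.0395 CPM in P5 WT molars. Both lie on the opposite strand, the libraries do not keep strand, and the part of these genes in the Itgad counts was not tested. Itgal averaged 1.68 ± 0.65 CPM in P11 Het and 2.52 ± 0.737 CPM in P5 Het libraries (SD, n = 5 and 6; edgeR adjusted p = 0.0774), a difference called without P11 Het replicate 3, at -0.79 (0.0243).

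Itga2b, the platelet alpha chain that pairs with Itgb3, was higher at P11, at 3.87 ± 0.498 CPM in P11 Het and 2.37 ± 0.336 CPM in P5 Het molars, and at 3.63 ± 0.593 CPM in P11 WT and 2.41 ± 0.531 CPM in P5 WT molars (SD, n = 5 at P11 and 6 at P5). The log2 fold change was 0.71 ± 0.15 in Het and 0.59 ± 0.16 in WT molars (SE), and the WT call was lost without the 5 libraries with raised markers, at 0.42 (edgeR adjusted p = 0.065). Megakaryocyte and platelet markers went the other way. The 5 of 8 in the table, none at 0 and 1 at a mean of 1 CPM or more, summed to between 10.1 and 14 CPM in P11 Het and 27.3 to 32.5 CPM in P5 Het molars, and to 7.37 to 11.0 CPM in P11 WT and 24.3 to 32.0 CPM in P5 WT molars.

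The counts of genes near the members stand beside all genes tested, of which 24.4% were higher and 23.4% lower in Het and 24.8% higher and 24.7% lower in WT molars. The ligands of these receptors were mostly higher at P11, with 15 of 22 tested higher and 1 lower in Het and 15 higher and 3 lower in WT molars. The strongest in WT molars were Tnn, a tenascin of bone and tooth, Postn, periostin of the periodontal ligament, and Spp1, osteopontin of mineralised tissue, at log2 fold changes of 5.07 ± 0.24, 4.05 ± 0.16 and 3.17 ± 0.25 (SE). Of 25 basement membrane partners, 13 were higher and 8 lower in Het and 13 higher and 7 lower in WT molars. In WT molars Ntn1, a netrin, rose by 2.07 ± 0.14 and Ntn4, another netrin, by 1.46 ± 0.24, while Fras1, which anchors epithelium to dermis, was at -1.74 ± 0.09 (SE). The list median was 0.37 in Het and 0.46 in WT molars, against -0.49 and -0.38 for the laminin chains.

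Against the same shares of all genes, of the 28 adhesion proteins inside the cell 10 were higher and 5 lower in Het and 10 higher and 6 lower in WT molars, a list median of 0.06 in Het and 0.05 in WT. The strongest in WT molars were Ilk, a kinase-like linker read at under 1 CPM in each group, Lims2, its partner, and Fermt3, the kindlin of blood cells, at 1.69 ± 0.35, 1.62 ± 0.17 and 1.53 ± 0.09 (SE). At that level Ilk rests on few counts, so its place is uncertain. Of 8 hemidesmosome and other laminin receptor genes, 5 were higher and 2 lower in Het and 3 higher and 3 lower in WT molars; in WT the syndecans Sdc4 and Sdc1 rose by 1.21 ± 0.10 and 1.09 ± 0.10 and Bcam, a receptor of Lama5, was at -0.77 ± 0.11 (SE). Of 12 latent TGF-beta genes, 3 were higher and 6 lower in Het and 2 higher and 7 lower in WT molars. Tgfbr3, a TGF-beta co-receptor, and Ltbp2, a microfibril protein, were at -1.71 ± 0.19 and -1.06 ± 0.12 in WT molars, and Ltbp1, which stores latent TGF-beta in the matrix, at 0.92 ± 0.07 (SE).

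Within one age the prefix marked differences in a few chains. At P11, with genotype as a term, prefix 2 against prefix 1 gave 1 member higher, where 1.52% of all genes were, and 3 lower, where 2.22% were. Itga11 was higher at 0.27 ± 0.06, and Itgb5, Itga1 and Itga9 were lower at -0.35 ± 0.06, -0.33 ± 0.07 and -0.45 ± 0.10 (SE; edgeR adjusted p = 0.0422, 0.00791, 0.0186 and 0.0341). P11 WT 4 and 5, with raised oral keratinocyte markers, are the WT libraries of prefix 2, and the part of those markers was not tested. At P5, prefix 4 against prefix 3 called 0 members by edgeR, the tool run for this test, where 1.57% of all genes were called, and 5 members had an unadjusted p under 0.05, where 16% of all genes had.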

How the data were processed

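Total RNA of first molars was sequenced from unstranded Nextera XT libraries on a NextSeq 2000, per the labels' protocols. The submitters' processing notes name STAR 2.7.3a, GRCm38, DESeq2, edgeR and limma. The deposited counts are whole numbers for 55439 features, of which 18 that are not mouse genes (0.000109 to 0.000457% of a library) were left out. The normalised table deposited by the authors holds a signal, counts over TMM-scaled library sizes, and set which genes are members. Counts were tested with edgeR 4.0.16 (R 4.3.3): TMM factors, minimum count 10 and minimum total 15, 4 groups, all 22 libraries, 18 residual degrees of freedom, two-sided quasi-likelihood tests with Benjamini-Hochberg adjustment over 21510 genes. SEs are the log2 fold change over the square root of F. Lengths are exon unions of GENCODE M21. Alternatives were DESeq2 1.42.0, limma-voom 3.58.1, other scalings, no filter, blocks and left-out libraries; those without 5 libraries, with library totals and of the prefix were chosen after seeing the data. The test was checked on simulated counts. The members and lists were chosen with earlier results of these data known. The values of one member are not reported here; counts of members include it. Described in full are members called between genotypes, the 6 smallest p in each genotype comparison and the 6 strongest age changes each way in WT. From the lists around the members, cell type markers aside, genes called between genotypes and the 3 strongest age changes in WT are named. Without molecular identifiers, counts are not independent molecules.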

Additional observations from a re-analysis of the deposited data

Results flagged for a closer look

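In 148 pairs of a member and a group, 6 had one library far from the others of its group, where chance alone gives about 1 in 20. Itga10 had 10.8 CPM in P5 Het 3, against 6.17 CPM in the next library, and 4.55 CPM in P11 WT 3, against 3.79 CPM. Itgae had 3.76 CPM in P11 WT 3, against 1.91 CPM. Itga6 had 346.9 CPM in P5 WT 3, against 298.4 CPM, and Lamc1 had 379.3 CPM in P11 WT 1, against 321.9 CPM. Itgad had 0.0806 CPM in P5 WT 2, against 0.0269 CPM, a level of a few counts.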

How the results depend on the processing

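For the 48 member results described in full, 1445 of 1451 recomputed values kept their direction and side of the threshold and 0 turned their direction. Over all members and alternatives 2 calls were gained and 26 lost. The count of members called lower at P5 was 0 when the 5 libraries set apart for their muscle or oral keratinocyte markers were left out. The count called lower in the mean of both ages was 0 without those libraries, 0 with no low-count filter and 2 with a block for the prefix; the cause was not tested. Leaving out 1 library at a time kept both counts at 1 and gave 17 to 18 members higher and 13 to 15 lower with age in Het molars, and 19 to 20 higher and 15 lower in WT molars. The replicate block gave 1 member lower at P5, 0 at P11, 17 higher and 13 lower with age in Het molars and 20 higher and 14 lower in WT molars. Het and WT libraries of the same age and number had deviations correlated between -0.195 and 0.189 over 2000 genes. Of 11 such pairs 2 correlated best with their own number. Because each pair joins a Het and a WT library, this cannot show whether libraries of one genotype share an animal. Members under 1 CPM rest on few counts.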
